A study of Homo sapiens with 9 samples.

Results

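The genes described here are 10 that tumor cells use to hold off immune attack: CD274 (PD-L1), PDCD1LG2 (PD-L2), CD276 (B7-H3), PVR (CD155), LGALS9 (galectin-9), CD47, NT5E (CD73), ENTPD1 (CD39), CD55 and CD59. They were chosen by name from the 26485 genes of the tables, and all 10 were found. RNA was sequenced from the established human cell line MDA-MB-231, of triple-negative breast cancer, grown in DMEM with fetal bovine serum, in 9 libraries from 3 groups of 3 biological replicates. The groups differed in the short hairpin RNA (shRNA) that the cells expressed stably: a nonspecific (NS) control hairpin, ASAH1 shRNA #1 or ASAH1 shRNA #2, both of the latter aimed at ASAH1, the acid ceramidase that splits ceramide into sphingosine and a fatty acid. Only 1 control hairpin was used, nothing states that the replicates came from separately transduced cultures, and p-values therefore measure the spread between these libraries, which may be technical. The cells were cultured without immune cells, and RNA was measured, not protein at the cell surface. The question each comparison answers is whether the level of these RNAs differed between cells with an ASAH1 hairpin and cells with NS shRNA.

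PD-L1 and PD-L2 bind PD-1 on T cells and restrain them, and interferon-gamma is a known inducer of PD-L1 through JAK-STAT signaling and the factor IRF1. PVR binds TIGIT and CD226 on T and NK cells, and CD47 binds SIRPA on macrophages and holds back phagocytosis. CD39 and CD73 act in sequence on extracellular ATP to make adenosine, which quiets T cells, and CD55 and CD59 protect a cell from complement, CD55 at the convertases and CD59 at the membrane attack complex.

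The promoters of 3 of these genes are shown: CD274 and CD47 because they moved in opposite directions with ASAH1 shRNA #1, and LGALS9 because it shares a motif with CD274 and moved the other way. The RefSeq table of GRCh38.p14 held windows of 300 bases (250 before and 50 after a start site) for 9 of the 10 genes, with 17 windows in all, and none for PDCD1LG2. The stretches of CD274 and CD47 below end before the RefSeq start, and that of LGALS9 runs just past it. GENCODE places the starts of CD47 and LGALS9 further upstream (at 108091862 and 27629798), so the stretches of these genes lie inside their GENCODE spans.
CD274, chr9:5450292-5450502, plus strand: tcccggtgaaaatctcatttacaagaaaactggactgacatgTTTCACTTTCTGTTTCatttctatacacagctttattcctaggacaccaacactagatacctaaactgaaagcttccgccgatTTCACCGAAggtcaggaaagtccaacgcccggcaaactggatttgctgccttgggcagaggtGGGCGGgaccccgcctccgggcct
LGALS9, chr17:27631068-27631197, plus strand: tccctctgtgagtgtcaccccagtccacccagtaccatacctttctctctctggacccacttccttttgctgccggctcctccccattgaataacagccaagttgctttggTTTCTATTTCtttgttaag
CD47, chr3:108091032-108091281, minus strand: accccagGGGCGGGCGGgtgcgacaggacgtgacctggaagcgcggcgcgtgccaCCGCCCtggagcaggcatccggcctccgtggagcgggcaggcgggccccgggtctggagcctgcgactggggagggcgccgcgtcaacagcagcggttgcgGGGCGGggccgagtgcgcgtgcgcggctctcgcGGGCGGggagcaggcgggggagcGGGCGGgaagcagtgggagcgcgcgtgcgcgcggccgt
Capitals in CD274 mark, in order, 2 overlapping copies of the core of the interferon-stimulated response element (ISRE, GAAA and GAAA with any 2 bases between them, read here on the opposite strand), a gamma-activated site (GAS, TTCNNNGAA) beginning at -125 from the start and a GC box (GGGCGG) at -63. Capitals in LGALS9 mark 1 ISRE core at -9, and capitals in CD47 mark 6 GC boxes. Searched on both strands, the ISRE core was in a window of 2 of the 9 genes, CD274 and LGALS9, against 3.57% of all 35116 windows. The GAS letters were in 2 genes (CD274 and CD59) against 7.66% of windows, the GC box in 6 genes against 45.0%, the AP-1 letters TGANTCA in 1 gene (CD59) against 7.71%, and the NF-kB letters (GGG, any 2 bases, TT, any base, CC) in 3 genes (CD276, CD55 and PVR) against 5.68%. Genes with several windows had more chances of a match than a lone window, and a match describes letters in a window and does not show that a factor bound there.

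Reads on genes came to 30989598 to 34867548 in NS shRNA libraries, 23806003 to 39791698 with ASAH1 shRNA #1 and 35653318 to 49659106 with ASAH1 shRNA #2. The targeted gene ASAH1 had normalized counts of 4436, 4512 and 4518 with NS shRNA against 1268, 1365 and 1348 with shRNA #1, and of 4787, 4898 and 4871 against 779.6, 806.6 and 761.7 with shRNA #2. ASAH1 fell by 1.76 on the log2 scale with shRNA #1 (limma adjusted p = 9.49e-09) and by 2.63 with shRNA #2 (limma adjusted p = 5.42e-10). The breast line markers VIM, KRT8, KRT18, CD44 and EGFR were all present, but most were not level between groups. EGFR rose with both hairpins (log2 fold changes 1.18 and 1.29), while KRT8 (-1.50 and -0.77) and VIM (-0.27 and -0.67) fell with both. KRT18 fell with shRNA #1 (-0.78) and did not pass with shRNA #2, and CD44 passed with neither. Of 3 receptors that mark other breast cancer types, ESR1 and PGR had at most 2 reads in any library. ERBB2 had 1530 to 3581 reads and fell with both hairpins (log2 fold changes -0.69 and -0.42, limma adjusted p = 2.73e-06 and 0.000735). Of 10 immune and endothelial markers, NKG7 was at 0 in every library, and PTPRC, CD3E, MS4A1 and CDH5 had at most 8 reads. Others were present: CD68 had 827 to 3483 reads, CD14 155 to 1470, CD8A 74 to 246, PECAM1 39 to 102 and ITGAM 1 to 27. CD14 fell with shRNA #1 (log2 fold change -2.14, limma adjusted p = 1.06e-07) and did not pass with shRNA #2 (0.098). CD68 rose with shRNA #1 (0.29) and fell with shRNA #2 (-1.38, limma adjusted p = 1.37e-06). CD8A rose with shRNA #1 (log2 fold change 0.99) and fell with shRNA #2 (-0.37), and PECAM1 fell with both (-0.59 and -0.91). ITGAM rose with shRNA #1 (2.39) and was not tested with shRNA #2. Over the 10 markers the summed level was 97.4 to 108 CPM (reads scaled to the library total) with NS shRNA, 87.5 to 113 with shRNA #1 and 60.2 to 64.3 with shRNA #2, most of it CD68 and CD14. With shRNA #1, 3 of the 5 markers tested rose and 2 fell, and with shRNA #2, 0 of 4 rose and 3 fell. Their part in the results was not tested.

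PD-L1 RNA rose with both ASAH1 hairpins, as did PVR, PD-L2 and CD55, while B7-H3, CD59 and galectin-9 fell with both. CD47 fell with ASAH1 shRNA #1, NT5E went up with shRNA #1 and down with shRNA #2, and ENTPD1 had almost no reads. In RNA pooled from a culture, fewer cells with a transcript and less of it per cell cannot be told apart. Differences from NS shRNA were tested with limma, and all fold changes below are on the log2(normalized count + 1) scale. A normalized count is a read count divided by a size factor of its library. With shRNA #1 all 9 genes that could be tested passed an adjusted p of 0.05, 5 higher and 4 lower, where 66.1% of the 14341 genes tested passed (32.8% higher and 33.3% lower). With shRNA #2, 8 of 9 passed, 4 higher and 4 lower, where 66.9% of 14250 genes passed (33.5% higher and 33.4% lower). The median absolute log2 fold change of the 9 genes was 0.58 with shRNA #1 and 0.56 with shRNA #2, beside 0.37 and 0.40 over all genes tested. The signed medians were 0.25 and -0.14, beside 0.0013 and 0.013 over all genes. Of the 9 genes, 4 rose with both hairpins, 3 fell with both and 1 was called in opposite directions. Of the 14075 genes tested in both comparisons, 20.0% rose with both, 20.5% fell with both (40.5% the same way) and 7.96% were called in opposite directions. The comparisons used the same NS shRNA libraries and so are not independent of each other. In every one of the 18 tests the 3 hairpin libraries lay wholly to one side of the 3 NS shRNA libraries, as they did for 69.2% of all genes with shRNA #1 and 70.0% with shRNA #2. A two-sided exact permutation test of 3 against 3 libraries then gave p = 0.1, the smallest it allows.

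**Figure D1:**
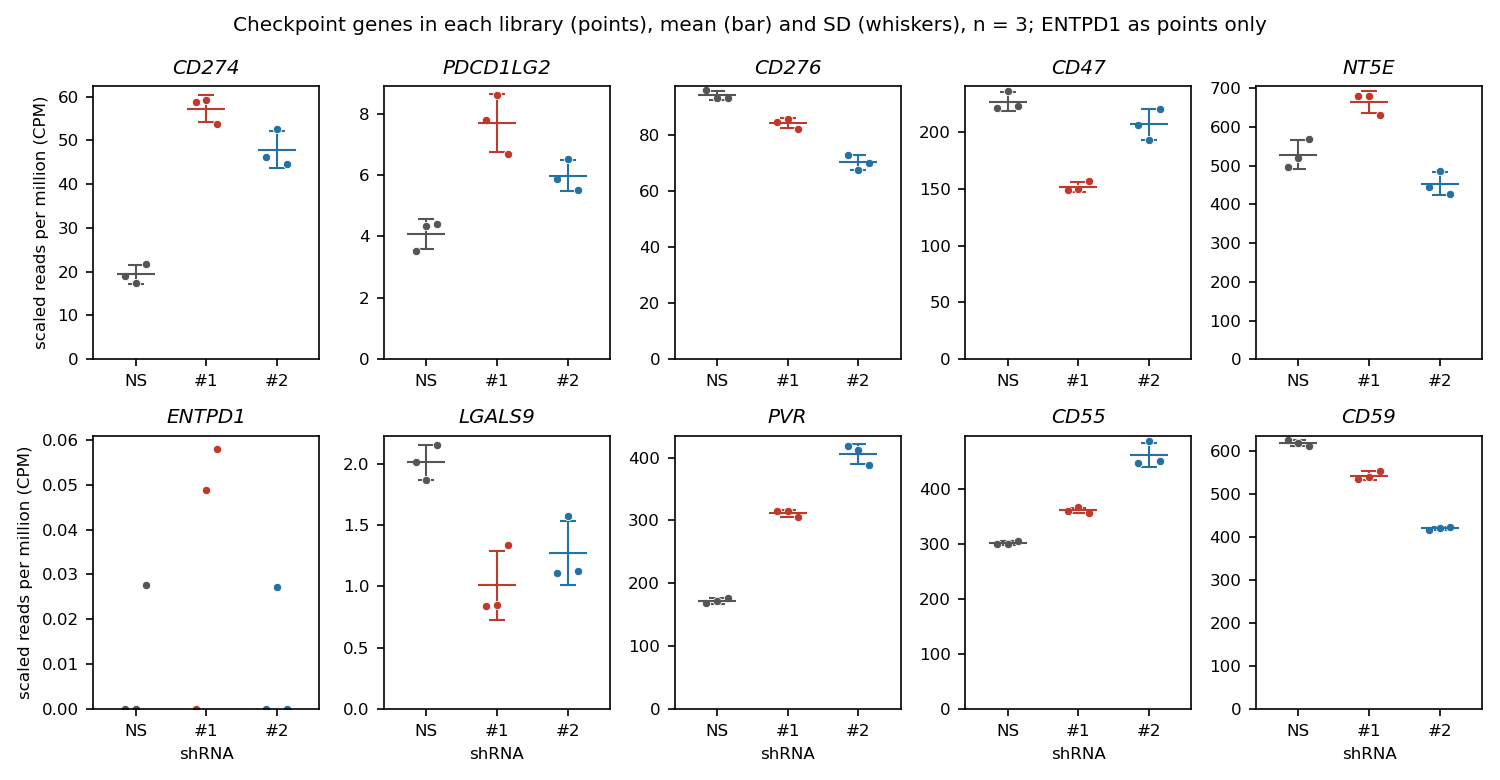
Level of each of the 10 genes in each library, in CPM after TMM scaling (vertical axes start at 0), for NS shRNA (grey), ASAH1 shRNA #1 (red) and ASAH1 shRNA #2 (blue), with mean bars and SD whiskers (n = 3) except for ENTPD1. CD274 and PVR sit above NS shRNA in all 6 hairpin libraries, CD47 is lowest with shRNA #1, and NT5E is above NS shRNA with shRNA #1 and below it with shRNA #2.

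CD274 encodes PD-L1 and lies at chr9:5450503-5470566 on the plus strand of hg38, with 7 exons in its reference transcript. On CPM, a scale common to all libraries that gives a gene's reads relative to the library's total after TMM scaling, it stood at 19.0, 17.5 and 21.7 with NS shRNA, 58.7, 59.3 and 53.8 with ASAH1 shRNA #1 and 46.2, 52.6 and 44.7 with ASAH1 shRNA #2. Every hairpin library was above every NS shRNA library, and the libraries of shRNA #2 all lay below those of shRNA #1. In normalized counts, CD274 went from 645 ± 72.8 (SD, n = 3) to 1898 ± 101 (SD, n = 3) with shRNA #1, a 2.95-fold rise (log2 fold change 1.56, standard error 0.085, limma adjusted p = 4.16e-07). With shRNA #2 it went from 697 ± 76.6 (SD, n = 3) to 1716 ± 151 (SD, n = 3), a 2.46-fold rise (log2 fold change 1.30, standard error 0.094, limma adjusted p = 9.52e-07). Leaving out any library kept the log2 fold change between 1.49 and 1.65 with shRNA #1 and between 1.23 and 1.38 with shRNA #2. The promoter shown above is that of the gene's RefSeq start.

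PDCD1LG2 encodes PD-L2, the other PD-1 ligand, and lies at chr9:5510531-5571282, its start 60.0 kb beyond that of CD274. It was less abundant, at 3.52, 4.33 and 4.39 scaled CPM with NS shRNA, 7.78, 8.60 and 6.70 with shRNA #1 and 5.89, 6.53 and 5.52 with shRNA #2. It rose 1.87-fold with shRNA #1 (log2 fold change 0.90, standard error 0.13, limma adjusted p = 0.000201) and 1.46-fold with shRNA #2 (log2 fold change 0.55, standard error 0.13, limma adjusted p = 0.00313). Of the other 9 genes whose start lies within 500 kb of that of CD274, 5 could be tested besides PDCD1LG2. JAK2, the kinase downstream of the interferon-gamma receptor, had log2 fold changes of -0.0032 (limma adjusted p = 0.983) and 0.22 (0.108), and RLN2 did not pass either. ERMP1 fell with both hairpins (log2 fold changes -0.99 and -0.54), RIC1 rose with shRNA #2 (0.55), and PLGRKT, the nearest gene, rose with shRNA #1 (0.26) and fell with shRNA #2 (-0.71). INSL6 had 0 reads, and INSL4, RLN1 and MLANA had at most 5 in any library. The PD-1 ligands rose with both hairpins and none of the 5 other tested genes around them did. Of all genes tested in both comparisons, 20.0% rose with both. With so few neighbours this does not set the ligands apart from the genes around them.

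PVR, the ligand of TIGIT and CD226 (chr19:44643798-44666162), rose with both hairpins. It was at 168, 171 and 177 scaled CPM with NS shRNA, 315, 315 and 305 with shRNA #1 and 418, 412 and 388 with shRNA #2. No 2 groups overlapped, and unlike CD274 the level was highest with shRNA #2. The rise was 1.80-fold with shRNA #1 (log2 fold change 0.85, standard error 0.044, limma adjusted p = 3.04e-07) and 2.35-fold with shRNA #2 (log2 fold change 1.23, standard error 0.053, limma adjusted p = 3.31e-08).

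CD276 encodes B7-H3, a B7-family member with an inhibitory role toward T cells (chr15:73683966-73714514), and changed least of the 5 T-cell ligands described, with either hairpin. It stood at 96.0, 93.2 and 93.0 scaled CPM with NS shRNA, 84.7, 85.6 and 82.1 with shRNA #1 and 72.8, 67.6 and 70.1 with shRNA #2. CD276 fell by 0.17 on the log2 scale with shRNA #1 (standard error 0.046, limma adjusted p = 0.00971) and by 0.43 with shRNA #2 (standard error 0.056, limma adjusted p = 5.88e-05).

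LGALS9 encodes galectin-9, a ligand of TIM-3 (chr17:27629798-27649560), and was the least abundant member that could be tested. It had 64, 63 and 78 reads with NS shRNA, 21, 35 and 46 with shRNA #1 and 37, 58 and 52 with shRNA #2. In scaled CPM these were 2.01, 1.87 and 2.15 with NS shRNA, 0.842, 0.852 and 1.33 with shRNA #1 and 1.11, 1.57 and 1.13 with shRNA #2, so that the hairpin groups lay below NS shRNA and overlapped each other. LGALS9 fell to 49.7% of NS shRNA with shRNA #1 (log2 fold change -1.01, standard error 0.21, limma adjusted p = 0.00217) and to 62.7% with shRNA #2 (log2 fold change -0.67, standard error 0.19, limma adjusted p = 0.00947). CD274 and LGALS9, the members with an ISRE core in their promoter window, moved in opposite directions, which is why the LGALS9 promoter was shown. Whether the motif had a part in either change was not tested. LGALS9 has near-identical copies, LGALS9B and LGALS9C, listed at no more than 2 reads, and reads that fit several of them are not counted by the authors' counter at its default settings, which makes its level uncertain.

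CD47, the signal that macrophages read through SIRPA (chr3:108043091-108091862, minus strand, 11 exons in the reference transcript), fell with ASAH1 shRNA #1. It was at 221, 236 and 223 scaled CPM with NS shRNA, 148, 150 and 157 with shRNA #1 and 206, 193 and 220 with shRNA #2. The shRNA #1 libraries were far below the others, and the highest shRNA #2 library was just under the lowest NS shRNA library. In normalized counts CD47 went from 7540 ± 241 (SD, n = 3) to 5027 ± 139 (SD, n = 3) with shRNA #1, to 66.7% of NS shRNA (log2 fold change -0.58, standard error 0.046, limma adjusted p = 3.93e-06). For shRNA #2 the NS shRNA libraries had 8150 ± 290 (SD, n = 3) and the hairpin libraries 7405 ± 474 (SD, n = 3). That difference did not pass the test (log2 fold change -0.14, 95% interval -0.27 to -0.0064, limma adjusted p = 0.0609). That call turned on 1 library: without replicate 3 of shRNA #2 the log2 fold change was -0.19 (limma adjusted p = 0.0236), while without replicate 2 it was -0.093 (limma adjusted p = 0.204). It also passed after upper quartile rescaling (-0.19, limma adjusted p = 0.0168) and in a limma fit of all 9 libraries (-0.14, limma adjusted p = 0.0418).

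NT5E encodes CD73, the enzyme that makes adenosine from AMP (chr6:85449584-85495791), and moved in opposite directions. It was at 497, 520 and 569 scaled CPM with NS shRNA, 680, 681 and 632 with shRNA #1 and 446, 487 and 428 with shRNA #2. NT5E rose 1.25-fold with shRNA #1 (log2 fold change 0.33, standard error 0.059, limma adjusted p = 0.000911) and fell to 85.6% of NS shRNA with shRNA #2 (log2 fold change -0.22, standard error 0.067, limma adjusted p = 0.0129). A rise with shRNA #1 and a fall with shRNA #2 were called for 3.8% of the 14075 genes tested in both comparisons. The fall with shRNA #2 was small: it stood at the threshold when limma was run without its trend (adjusted p = 0.05003) and was lost without replicate 1 of shRNA #2 (-0.21, limma adjusted p = 0.0506). ENTPD1, which encodes CD39, the enzyme that makes AMP from ATP and ADP (chr10:95711779-95877266), had 0, 0 and 1 reads with NS shRNA, 0, 2 and 2 with shRNA #1 and 0, 1 and 0 with shRNA #2. It was under the filter of a mean normalized count of 10, and with every library at or under 3 reads a difference was not detectable at this depth.

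CD55, which speeds the decay of complement convertases (chr1:207321519-207386804), rose with both hairpins. It stood at 299.9, 301 and 306 scaled CPM with NS shRNA, 361, 367 and 357 with shRNA #1 and 448, 488 and 452 with shRNA #2, with no overlap between any 2 groups. CD55 rose 1.19-fold with shRNA #1 (log2 fold change 0.25, standard error 0.040, limma adjusted p = 0.000359) and 1.53-fold with shRNA #2 (log2 fold change 0.61, standard error 0.052, limma adjusted p = 2.75e-06). CD59, which blocks the membrane attack complex (chr11:33703010-33736479, minus strand), went the other way. It stood at 625, 619 and 612 scaled CPM with NS shRNA, 535, 539 and 554 with shRNA #1 and 417, 421 and 423 with shRNA #2, again in separate ranges. CD59 fell to 87.5% of NS shRNA with shRNA #1 (log2 fold change -0.19, standard error 0.039, limma adjusted p = 0.00183) and to 67.7% with shRNA #2 (log2 fold change -0.56, standard error 0.045, limma adjusted p = 1.93e-06). CD46, another membrane regulator of complement, fell with both hairpins (log2 fold changes -1.15 and -0.33), and CR1, which is one as well, had at most 3 reads and was not tested.

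Of the 16 other genes within 500 kb of the start of CD55, 9 could be tested. CR2, a complement receptor, rose with both (log2 fold changes 2.55 and 2.30, from at most 64 reads), as did IL24, a cytokine gene (5.22 and 2.28), and YOD1 (0.20 and 0.92), while CD46 and PFKFB2 (-0.45 and -0.41) fell with both. FCMR rose with shRNA #1 (0.80) and fell with shRNA #2 (-0.79). C4BPB rose with shRNA #2 (0.64), C1orf116 rose with shRNA #1 (0.71) and MIR29C fell with shRNA #1 (-1.19, from at most 29 reads). IL24 and FCMR overlap in position, as do PFKFB2 and YOD1 here and RIC1 and ERMP1 near CD274; the authors counted by strand.

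The ASAH1 hairpins were set against each other with the edgeR quasi-likelihood test, run on reads recovered from the normalized counts of all 9 libraries. Of the 9 genes tested, 8 differed, 3 higher and 5 lower with shRNA #2, where 63.9% of 14381 genes did (31.4% higher and 32.5% lower). ASAH1 itself was lower with shRNA #2 than with shRNA #1, at 21.8 ± 0.623 against 40.0 ± 1.78 scaled CPM (SD, n = 3). CD47, PVR and CD55 were higher with shRNA #2, by log2 ratios of 0.43, 0.37 and 0.34 (edgeR adjusted p = 3.02e-05, 1.85e-05 and 2.91e-05). NT5E, CD59 and CD276 were lower with shRNA #2, by log2 ratios of -0.56, -0.38 and -0.27 (edgeR adjusted p = 1.13e-05, 2.93e-06 and 0.000345). CD274 and PDCD1LG2 were also lower, by -0.27 and -0.38 (edgeR adjusted p = 0.0145 and 0.0184), but each of these 2 calls was lost when any of several libraries was left out. For CD274 the adjusted p was 0.0537 without replicate 2 of shRNA #1, 0.0550 without replicate 1 of shRNA #2 and 0.0545 without replicate 3 of shRNA #2, with log2 ratios of -0.25, -0.25 and -0.22 (edgeR). For PDCD1LG2 the same omissions gave 0.0974, 0.0525 and 0.0687, with log2 ratios of -0.29, -0.37 and -0.32 (edgeR). LGALS9 did not pass (log2 ratio 0.31, 95% interval -0.20 to 0.82, edgeR adjusted p = 0.262), and without replicate 2 of shRNA #2 its log2 ratio was 0.13.

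**Figure D2:**
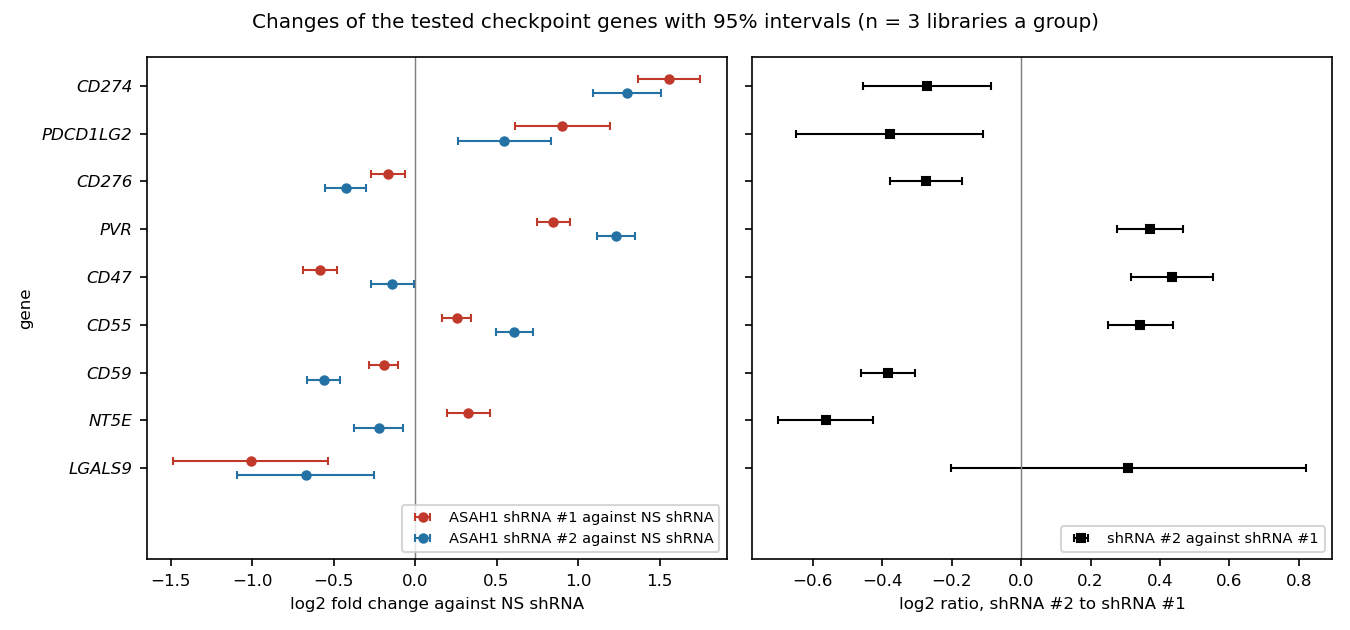
Left, log2 fold change of the 9 tested genes against NS shRNA with ASAH1 shRNA #1 (red) and ASAH1 shRNA #2 (blue); right, log2 ratio of shRNA #2 to shRNA #1; points are estimates and bars 95% intervals from 3 libraries a group. CD274, PDCD1LG2, PVR and CD55 lie right of 0 with both hairpins, CD276, CD59 and LGALS9 lie left of 0 with both, and the NT5E points lie on opposite sides.

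Levels of different genes were set side by side only after division by the summed length of their exons, as scaled CPM per kilobase. With NS shRNA the order was NT5E at 117 ± 8.10 (SD, n = 3), CD59 at 58.6 ± 0.611, CD55 at 29.5 ± 0.316, CD47 at 27.5 ± 0.982, CD276 at 17.2 ± 0.304, PVR at 16.5 ± 0.447, CD274 at 4.72 ± 0.512, PDCD1LG2 at 1.68 ± 0.199, LGALS9 at 0.352 ± 0.0252 and ENTPD1 last. Each gene was above the next in all libraries, except that CD276 and PVR overlapped. With shRNA #1 the order changed in 1 place, PVR (29.9 ± 0.554) passing CD47 (18.4 ± 0.525) and CD276 (15.3 ± 0.333), while CD274 at 13.9 ± 0.740 stayed just under CD276 without overlap. With shRNA #2, CD55 (45.1 ± 2.12) was above CD59 (39.8 ± 0.288), which overlapped PVR (38.9 ± 1.5), and CD276 (12.8 ± 0.480) overlapped CD274 (11.7 ± 1.03). PD-L1 RNA per kilobase, below that of B7-H3 in every NS shRNA library, thus overlapped it with shRNA #2. The overlap describes the spread between libraries and leaves out the uncertainty of the exon lengths. Exon lengths are from GENCODE v44 and not from the annotation the authors counted on.

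**Figure D3:**
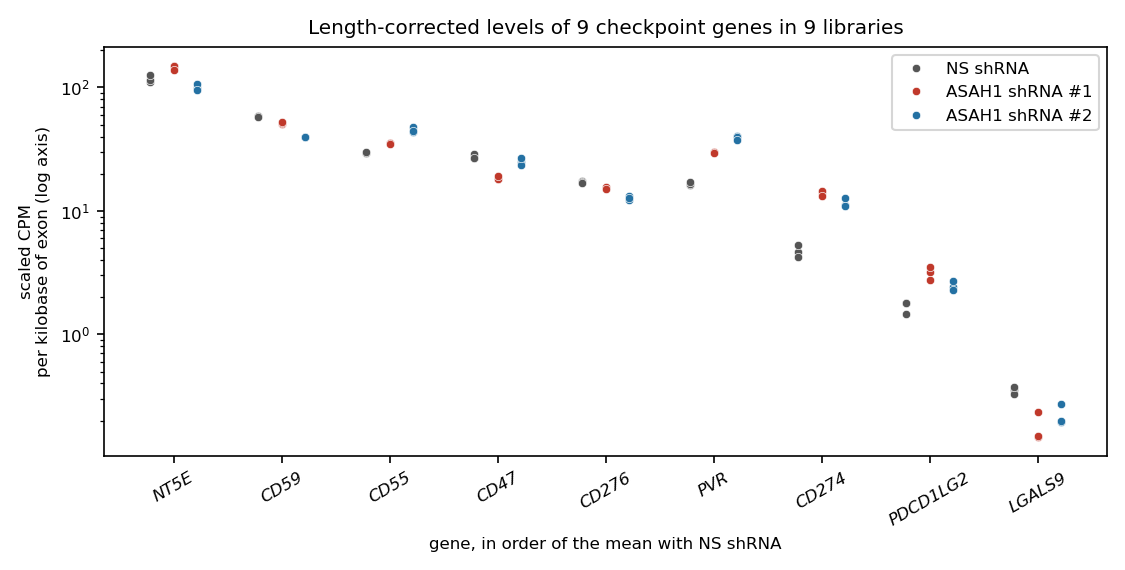
Length-corrected level of 9 genes in each of 9 libraries, as scaled CPM per kilobase of exon on a log axis, ordered by the NS shRNA mean (grey NS shRNA, red ASAH1 shRNA #1, blue ASAH1 shRNA #2). NT5E is highest in every group, and CD274 rises from 4.72 with NS shRNA to 13.9 and 11.7, close to CD276.

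Other genes of these pathways were read from the same limma fits. Among 21 other ligands of immune checkpoints and costimulation, 14 could be tested, of which 5 rose, 6 fell and 3 did not pass with shRNA #1 (median log2 fold change -0.047), and 1 rose, 5 fell and 8 did not pass with shRNA #2 (median -0.30). Of all genes tested, 32.8% rose and 33.3% fell with shRNA #1, and 33.5% rose and 33.4% fell with shRNA #2, and the lists that follow are read against the same shares. CEACAM1, an adhesion molecule that restrains T and NK cells, fell from 75.2 ± 16.6 to 30.7 ± 4.97 normalized counts with shRNA #1 and from 81.3 ± 17.8 to 5.75 ± 1.84 with shRNA #2 (SD, n = 3), log2 fold changes of -1.26 and -3.62 (limma adjusted p = 0.00056 and 2.33e-06). VSIR (VISTA), listed under its older symbol C10orf54, fell with both (-0.99 and -0.80), as did CD58 (-0.68 and -0.36), the ligand of CD2 on T cells.

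Among 14 other genes of extracellular ATP and adenosine, 3 rose, 4 fell and 3 did not pass of 10 tested with shRNA #1 (median log2 fold change -0.11), and 3 rose, 6 fell and 2 did not pass of 11 tested with shRNA #2 (median -0.37). ADORA2B, the low-affinity adenosine receptor, rose from 2085 ± 48.0 to 6905 ± 199 normalized counts with shRNA #1 and from 2254 ± 56.6 to 6917 ± 269 with shRNA #2 (SD, n = 3), log2 fold changes of 1.73 and 1.62 (limma adjusted p = 7.93e-09 and 8.16e-09). ADORA1, a high-affinity receptor, fell with both (-1.5 and -1.83), as did ADA, the deaminase that removes adenosine (-0.44 and -1.61). The adenosine genes thus held a receptor that rose with both hairpins and another that fell with both, beside NT5E, which was called in opposite directions.

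Most complement genes that could be tested fell. Of 13 listed besides CD55 and CD59, 10 were tested, and 9 fell, 0 rose and 1 did not pass with shRNA #1 (median log2 fold change -1.14), while 9 fell and 1 rose with shRNA #2 (median -0.49), beside all-gene medians of 0.0013 and 0.013 and lower calls for 33.3% and 33.4% of all genes tested. C1R, a protease of the first component, fell from 2204 ± 77.5 to 344 ± 23.9 normalized counts with shRNA #1 (log2 fold change -2.68, limma adjusted p = 6.81e-09) and by as much with shRNA #2 (log2 fold change -2.85). VTN, vitronectin, fell with both (-2.63 and -2.23) and had a mean of 20.1 normalized counts with NS shRNA in the first comparison. These lists were described by counts alone, without a test of the list.

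Among 14 genes whose products induce, stabilize or modify PD-L1 or CD47, all tested, 3 rose, 5 fell and 6 did not pass with shRNA #1 (median log2 fold change -0.012), and 3 rose, 4 fell and 7 did not pass with shRNA #2 (median 0.0010). IRF1, the interferon-induced factor named above, rose from 2700 ± 117 to 3694 ± 160 normalized counts with shRNA #1 and from 2918 ± 125 to 6636 ± 255 with shRNA #2 (SD, n = 3), log2 fold changes of 0.45 and 1.19 (limma adjusted p = 6.11e-05 and 6.87e-08). IRF1 was higher with shRNA #2 than with shRNA #1 (log2 ratio 0.72, edgeR adjusted p = 6.24e-07), and the same ratio for CD274 was -0.27. Whether IRF1 had a part in the rise of CD274 was not tested. SOCS1, which restrains JAK signaling, fell with both (-0.62 and -0.76), and CMTM6, which keeps PD-L1 from being degraded, fell with both (-0.68 and -0.51). Of 8 binding partners of the members, PDCD1 (PD-1) had at most 2 reads in any library and TIGIT 0. Of 3 tested with shRNA #1, 2 rose, CD226 (at most 16 reads) and THBS1, and of 2 tested with shRNA #2, THBS1 rose. THBS1, the matrix protein thrombospondin-1 that binds CD47, had log2 fold changes of 0.27 and 0.66.

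**Figure D4:**
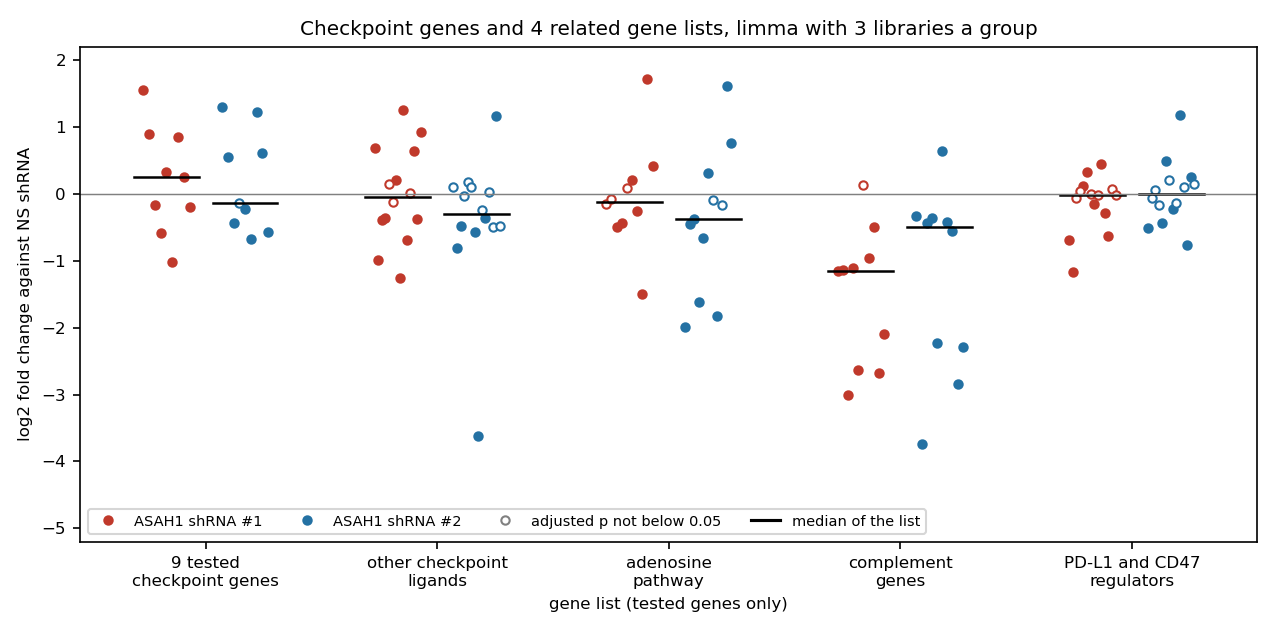
Log2 fold change against NS shRNA of the tested genes of each list, for ASAH1 shRNA #1 (red) and ASAH1 shRNA #2 (blue), with 3 libraries a group; filled points have a limma adjusted p below 0.05, open points do not, and black bars are medians. Complement genes lie mostly below 0, with medians of -1.14 and -0.49, while the regulators of PD-L1 and CD47 have medians near 0.

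The genes whose level followed CD274 most closely over the 9 libraries, by Pearson correlation of log2 scaled CPM among 11630 genes, were WARS (r = 0.999), a tryptophanyl-tRNA synthetase gene, UBAP1 (0.998), APPBP2 (0.998), NEDD4L (0.998), a ubiquitin ligase gene, and AMMECR1L (0.997). WARS went from 100.5 ± 6.48 scaled CPM with NS shRNA to 241 ± 14.1 with shRNA #1 and 208 ± 18.8 with shRNA #2 (SD, n = 3). Those most like CD47 were PC (r = 0.996), the pyruvate carboxylase gene, CREG1 (0.995), RECQL4 (0.994), CPE (0.993) and PNPLA6 (0.992). PC went from 231 ± 7.06 to 163 ± 4.56 and 217 ± 9.65 (SD, n = 3). The 9 points share 3 groups and their depths, so these values describe likeness and carry no p.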

How the data were processed

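RNA from 9 MDA-MB-231 libraries was sequenced as single-end reads from strand-specific libraries; the labels name oligo-dT selection in one place and ribosomal RNA depletion in another. Per the methods and labels, the authors trimmed with Trimmomatic 0.36, aligned to hg38 with STAR 2.7.1a, counted UCSC genes with htseq-count on the reverse strand and ran DESeq2 1.28 for each hairpin with NS shRNA; another methods paragraph gives RSEM and edgeR instead. Deposited were 2 tables of 26485 genes with, per library, a signal, the count divided by a size factor. Their DESeq2 columns (log2 fold change, standard error, Wald statistic, p-values, mean) were not used, and 0 per-sample columns went unmatched. Symbols turned into dates (28) were restored from the other table.

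Every signal was a whole number of reads within 0.01 read (100% of values) over 1 factor per library, so reads were recovered; NS shRNA reads showed 0 differences between tables. Replicates differed beyond sampling noise (chi-square per gene 5.03 to 21.9).

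Limma 3.58.1 with an intensity trend (R 4.3.3) was fitted within each table to log2(value + 1), for genes with a mean of at least 10, two-sided, Benjamini-Hochberg at 0.05. EdgeR 4.0.16 with TMM compared the hairpins on recovered reads. Both were also run on simulated data with 200 changed genes. Far more genes were called here, so that run does not measure their error rates for these data. Alternatives were pseudocounts of 0.1 and 5, no filter, a mean of at least 50, no trend, upper quartile rescaling, edgeR and DESeq2 1.42.0 on recovered reads, 1 fit of 9 libraries, the replicate number as a block, and each library left out. Named were the 10 genes, ASAH1, up to 3 genes a list with the largest mean absolute change called alike in both comparisons, genes within 500 kb of CD274 and CD55, and the 5 genes most like CD274 and CD47 (mean of at least 100 reads). CD226, CD46, the markers CD68, CD14, CD8A, PECAM1 and ITGAM, and marker and receptor genes with few reads were added after their values were seen. One named result is not reported here. Members and lists were chosen with earlier results of these data known. Positions come from GENCODE v44 on hg38 (24265 genes matched), promoters from RefSeq GRCh38.p14.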

Additional observations from a re-analysis of the deposited data

Results flagged for a closer look

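The effects of the hairpins on 8 genes differed from each other by a test of the difference itself, edgeR's quasi-likelihood test of ASAH1 shRNA #2 against ASAH1 shRNA #1. The log2 ratios of shRNA #2 to shRNA #1 were 0.43 for CD47, 0.37 for PVR, 0.34 for CD55, -0.56 for NT5E, -0.38 for CD59, -0.38 for PDCD1LG2, -0.27 for CD276 and -0.27 for CD274. With 63.9% of all 14381 genes differing between the hairpins, 8 of 9 is not particular to these genes. ASAH1 RNA was lower with shRNA #2 (log2 ratio -0.89). Whether the differences go with the depth of knockdown or with the hairpin sequence cannot be told apart, since each hairpin has its own depth of knockdown.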

How the results depend on the processing

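Over all alternatives, 609 of 622 values kept their direction and their side of the threshold, 9 lost the threshold, 3 gained it, 0 reversed and 1 count moved, where a count was taken as moved only beyond 1.5 times its reported value. That count was that of the binding partners changed with ASAH1 shRNA #1, which was 1 with a minimum mean of 50 instead of 2. The members' calls that turned on a library or a setting (CD47 and NT5E with shRNA #2, CD274 and PDCD1LG2 between the hairpins) stand beside their values above, that of CD276 with shRNA #1 is given with the replicate block here, and the cause was not tested. Leaving out 1 library at a time gave 6 to 8 members that differed between the hairpins. Replicate numbers were shared between groups, but same-numbered libraries did not deviate together (correlations of -0.268 to -0.131 with shRNA #1 and -0.316 to -0.0982 with shRNA #2), so they were not treated as pairs. Differently numbered libraries had correlations of -0.0677 to 0.266 with shRNA #1 and -0.113 to 0.261 with shRNA #2. A batch shared across groups was not tested. With the replicate block, 4120 genes rose and 4117 fell with shRNA #1 (4700 and 4779 without it) and 4246 and 4280 with shRNA #2 (4780 and 4758 without it), and 8590 differed between the hairpins (9188 without it). CD276 with shRNA #1 then had a log2 fold change of -0.17 and a limma adjusted p of 0.0625, which took the members called lower from 4 to 3, and no other member's call changed with the block. EdgeR on the recovered reads called 4688 genes higher and 4777 lower for shRNA #1, and 4786 higher and 4761 lower for shRNA #2. Upper quartile rescaling moved the share of calls that were higher with shRNA #2 from 50.1% to 45.9%. Depth limits LGALS9, with 21 to 78 reads, and ENTPD1, with at most 2.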
